A study of Mus musculus with 10 samples.

Results

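Among the epithelial cells of the E16.5 mouse lower incisor, 78 cells carried transcripts of both Pcp4 and Cldn10, and they are described here. Pcp4 encodes a small calmodulin-binding peptide, and Cldn10 encodes a claudin, a protein of tight junctions. Cells were first kept when they held at least 700 genes and at most 20% mitochondrial UMIs (unique molecular identifiers, which count single captured transcripts). Epithelial cells were those with a UMI for at least 3 of 9 epithelial genes (Epcam, Krt5, Krt14, Krt17, Dsp, Dsc3, Dsg2, Sfn and Trp63) and for at most 1 of 3 mesenchymal genes (Pdgfra, Prrx1 and Twist1). Of these, the Pcp4 Cldn10 cells had at least 1 UMI of each of the 2 genes, at most 1 UMI of the signalling gene Shh and none of Krt15 or Meis2. The rule found 78 of 1657 epithelial cells, a share of 4.71% (exact binomial 95% interval 3.74 to 5.84%), and 1.73% of the 4511 cells kept from 5719 barcodes. The whole series held 22619 barcodes, of which 17175 were kept. Levels of the 5 genes of the rule chose the cells, and the 9 epithelial and 3 mesenchymal genes chose the epithelial cells. The levels of all these genes are therefore given only as a description.

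The series profiled single cells from wild type NMRI mouse embryos at E11.5 (mandibles), E14.5 and E16.5 (lower incisor buds), dissociated with Collagenase P and sequenced with the 10x Genomics 3' kit, version 3. GEO's labels list 4, 4 and 2 samples at the 3 stages, and the methods name 2 litters for E16.5. All E16.5 barcodes stand in 1 matrix with 1 suffix, so cells could not be assigned to an embryo and the stage counts as 1 sample. Intervals given here therefore cover counting error only, with no spread between animals, and no p-value was computed.

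The mouse incisor grows throughout life from epithelial stem cells held in the cervical loops, the posterior tips of the epithelium. A cervical loop is made of inner enamel epithelium, which gives rise to the enamel-forming ameloblasts, of outer enamel epithelium, and of the stratum intermedium and stellate reticulum between them. Sox2, a transcription factor, marks stem cells of this niche, and FGF, Wnt, Hedgehog and BMP signals act between epithelium and mesenchyme during its formation.

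The Pcp4 Cldn10 cells were deeper than the cells they were compared with. Their median depth was 11096 UMIs, with the middle 50% of cells between 7372 and 15937 and extremes of 1668 and 123785. The other 1579 epithelial cells had a median of 6964 UMIs. The medians of genes detected were 3087 and 2400, and those of mitochondrial UMIs were 3.21% and 3.61%. A rule that asks for UMIs of 2 genes favours deep cells, so several shares of cells with a UMI are also given after each cell was thinned to 2000 UMIs. Shares without a thinned value, as for Isl1, Pdgfra and Sox2 across stages, are at full depth and follow depth in part. Thinning left out 1 of the 78 cells and 110 of the others. No barcode of the 78 cells occurred at another stage, whereas the whole E16.5 matrix shared 17 barcodes with E11.5 and 16 with E14.5. The deepest cell supplied 9.64% of all UMIs of the 78 cells and the next deepest 6.40%. The deepest held 1 UMI each of Pcp4, Cldn10 and Shh, and neither of these 2 cells held a Sox2 UMI.

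Besides the genes of the rule, the label of these cells rests on Crabp1 and Sox2. Crabp1 was found in 84.6% and Sox2 in 52.6% of the Pcp4 Cldn10 cells. Thus the cells carried the markers of their label, although Sox2 was not detected in 37 of them at their depth. Isl1, a transcription factor of incisor epithelium, was found in 94.9% of the cells against 77.4% of the other epithelial cells. Its level was 427 CPM (the UMIs of a gene summed over cells and scaled to a total of 1e6, exact Poisson 95% interval 392 to 465) against 348 CPM.

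The windows before the starts of the leading genes are printed so that the loci can be recognised. They hold the 250 bases upstream of the RefSeq start on GRCm38.p6, on the strand of the gene, with motif matches on either strand in capitals. The motifs searched were the TATA box, with the letters TATAAA, then the CCAAT box, for which its own 5 letters were used, and then the GC box, read as GGGCGG wherever it occurred. The window of 1500009L16Rik is chr10:83722615-83722864, that of Crabp1 chr9:54764498-54764747 and that of Sox2 chr3:34649745-34649994, all on the plus strand. For Sox2 the RefSeq start used lies upstream of the start of the gene annotation, chr3:34650405, so its window does not adjoin the latter.
1500009L16Rik: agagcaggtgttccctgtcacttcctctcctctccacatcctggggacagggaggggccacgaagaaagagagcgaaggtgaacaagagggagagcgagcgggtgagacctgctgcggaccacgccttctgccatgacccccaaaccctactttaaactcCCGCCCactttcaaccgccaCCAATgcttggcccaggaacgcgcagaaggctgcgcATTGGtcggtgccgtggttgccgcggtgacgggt
Crabp1: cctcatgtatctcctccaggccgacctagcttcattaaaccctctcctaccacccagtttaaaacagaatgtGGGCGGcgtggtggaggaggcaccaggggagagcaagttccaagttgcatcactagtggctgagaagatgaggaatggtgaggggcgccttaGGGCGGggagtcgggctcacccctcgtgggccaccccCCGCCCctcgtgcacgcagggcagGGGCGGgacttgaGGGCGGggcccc
Sox2: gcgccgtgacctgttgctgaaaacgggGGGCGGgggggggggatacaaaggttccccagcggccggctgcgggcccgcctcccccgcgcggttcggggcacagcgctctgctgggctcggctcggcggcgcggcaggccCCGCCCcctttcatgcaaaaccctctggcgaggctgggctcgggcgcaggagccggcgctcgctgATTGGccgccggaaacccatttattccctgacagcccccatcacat

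The GC box matched 5 times in the Crabp1 window, 2 times in that of Sox2 and 1 time in that of 1500009L16Rik, and the TATA box in none of the 3. Over all 32851 RefSeq windows of this length, 32.7% held a GC box, 33.8% a CCAAT box and 12.4% a TATA box. Over the 83 windows of genes at least 2-fold higher in the Pcp4 Cldn10 cells, which cover 56 of the 73 such genes outside the rule, the shares were 55.4%, 37.3% and 7.23%, close to the 62.2%, 35.5% and 6.01% of all genes measured. A match of letters is a description and not a binding site. On GRCm38, Sox2 (chr3:34650405-34652461, plus strand) lies inside the longer transcript Sox2ot on the same strand. Sox2ot gave 3 UMIs in the 78 cells and Sox2 gave 107.

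The Pcp4 Cldn10 cells were compared with the other 1579 epithelial cells to describe what they share beyond the rule. Of 5830 genes with a mean of at least 20 CPM over both groups, 75 (1.29%) were at least 2-fold higher and 114 (1.96%) at least 2-fold lower, together 3.24%, counted on a log2 ratio with 10 CPM added to each side. Pcp4 and Cldn10 are among the former and Shh among the latter. A gene under 20 CPM in the others passed the limit only through the Pcp4 Cldn10 cells. Likewise, a gene under 20 CPM in the Pcp4 Cldn10 cells passed it only through the others. For such genes the limit fixed the side of 0, and their ratios are given as a description. The counts here and below include them. The median log2 ratio of all 5830 genes was -0.0035. For 52 of the higher and 58 of the lower genes the whole interval lay past 2-fold. The plot of log2 ratio by level shows these genes apart from a dense band around 0. The counts of higher and lower genes depend on the processing. They were 195 and 246 with cells thinned to 2000 UMIs, and 27 and 33 with 50 CPM added.

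**Figure D1:**
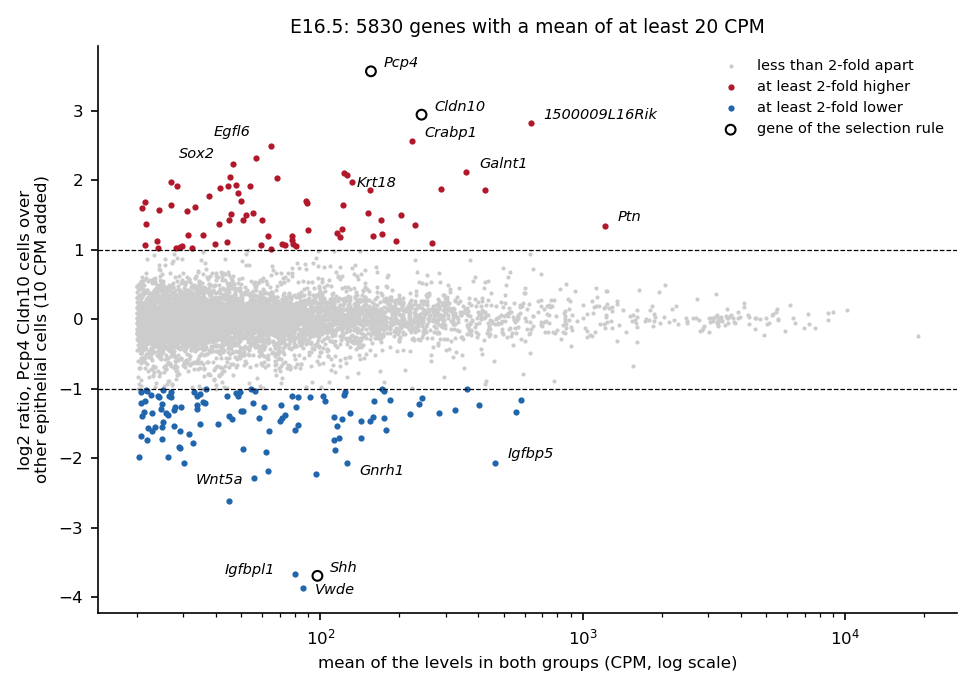
Log2 ratio of the 78 Pcp4 Cldn10 cells over the other 1579 epithelial cells of E16.5 (10 CPM added) against the mean level of both groups in CPM on a log axis, 1 point per gene, with dashed lines at 2-fold. Of 5830 genes, 75 lie above the upper line and 114 below the lower; circles mark genes of the selection rule.

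The rule genes set the scale of the contrast. Pcp4 (chr16:96467606-96525793) stood at 296 CPM in the selected cells and 15.8 CPM in the others, Cldn10 (chr14:118787908-118875489) at 438 and 48.2 CPM, and Shh at 5.45 and 189 CPM. Together the 78 cells held 58.4% of all Pcp4 UMIs and 40.5% of all Cldn10 UMIs of the epithelium, with 6.98% of its UMIs in all.

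The highest ratio outside the rule was that of 1500009L16Rik (ENSMUSG00000087651, chr10:83722865-83762762), a protein-coding gene known only by its clone name. It stood at 1118 CPM (1061 to 1177) in the Pcp4 Cldn10 cells and 150 CPM (144 to 156) in the others, a log2 ratio of 2.82 (2.72 to 2.91). A UMI was found in 94.9% against 48.4% of cells, and in 79.2% against 21.3% after thinning. Over the 78 cells it ranged from 0 to 3708 CPM with a median of 1096 CPM, while the median of the other cells was 0.

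Crabp1 (ENSMUSG00000032291, chr9:54764748-54773110), which binds retinoic acid in the cytoplasm, followed with 390 CPM (357 to 426) against 57.6 CPM (54.0 to 61.3) and a log2 ratio of 2.57 (2.42 to 2.71). Over the 78 cells it ranged from 0 to 1472 CPM with a median of 430 CPM. It was found in 84.6% against 21.2% of cells, and in 53.2% against 8.03% after thinning. Crabp1 is not an epithelial gene alone, since 882 mesenchymal cells of the same matrix (median 6285 UMIs) held 254 CPM (242 to 267).

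Sox2 (ENSMUSG00000074637) stood at 83.3 CPM (68.3 to 101) in the Pcp4 Cldn10 cells and at 9.81 CPM (8.38 to 11.4) in the rest of the epithelium, which gives a log2 ratio of 2.24 (1.96 to 2.50). It was found in 41 of 78 cells (52.6%) and in 5.26% of the others, and after thinning in 14.3% and 1.29%. In the mesenchymal cells, which serve as background for free RNA, 0.113% held a Sox2 UMI. Single cells held between 0 and 9 Sox2 UMIs, with 24 cells holding 2 or more. With 4.71% of the cells, the Pcp4 Cldn10 cells held 38.9% of the Sox2 UMIs of the E16.5 epithelium, or 107 of 275. The remaining 168 UMIs lay outside the rule, so the Pcp4 Cldn10 cells and the Sox2-expressing cells overlapped in part.

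The other 12 of the 15 genes with the highest ratios belonged to several functions. Krt8 and Krt18, partner keratins of simple epithelia that are neighbours on chromosome 15, reached 78.6 against 11.6 CPM (log2 ratio 2.04, 1.76 to 2.31) and 206 against 40.1 CPM (2.11, 1.92 to 2.30). Secreted or membrane ligands were Egfl6 (118 against 12.7 CPM), the parathyroid hormone-related protein gene Pthlh (216 against 47.4 CPM), the semaphorin Sema3e (91.1 against 16.9 CPM) and the ephrin Efnb2 (209 against 42.3 CPM). The transcriptional regulators were the homeobox gene Meis1 (116 against 21.0 CPM) and the PR domain gene Prdm6 (49.0 against 5.02 CPM). Galnt1, which starts O-linked glycosylation, stood at 592 against 129 CPM. Fez1, Anxa3 and Appl2, which encode a kinesin adaptor, a phospholipid-binding annexin and an endosomal adaptor, had log2 ratios of 2.32, 1.94 and 1.92. In none of these 12 did the intervals of the 2 levels meet, which follows in part from their choice by ratio in these same cells. Egfl6, Fez1, Krt8, Prdm6, Anxa3, Appl2 and Sema3e, and Sox2 as well, stood under 20 CPM in the others. These genes passed the limit only through the Pcp4 Cldn10 cells.

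The 15 genes with the lowest ratios were led by Vwde, with 3 UMIs in the 78 cells (2.34 CPM, 0.482 to 6.83) against 169 CPM in the others, a log2 ratio of -3.86 (-4.10 to -3.41). Igfbpl1, related to the insulin-like growth factor binding proteins, had 4 UMIs (3.11 CPM) against 157 CPM and a ratio of -3.67. Wnt5a, a Wnt ligand, stood at 12.5 against 98.9 CPM, and Aldh1a3, an enzyme that makes retinoic acid, at 27.2 against 165 CPM. Igfbp5 stood at 173 against 754 CPM, the transcription factor Tbx3 at 5.45 against 54.8 CPM, and Gnrh1 at 42.8 against 210 CPM. Nr2f2, a nuclear receptor, stood at 42.8 against 184 CPM, but 54.5% of its 55 UMIs in the selected cells came from 1 cell and 70 cells held none. Stmn2, Col11a1, Lhfp, Galnt5, Tnfrsf19, Itm2a and Chchd10 made up the rest, with log2 ratios between -2.61 and -1.85. In the selected cells Vwde, Igfbpl1, Wnt5a, Tbx3, Stmn2, Col11a1, Lhfp, Galnt5, Itm2a and Chchd10 stood under 20 CPM. The limit therefore fixed the side of 0 of these genes.

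**Figure D2:**
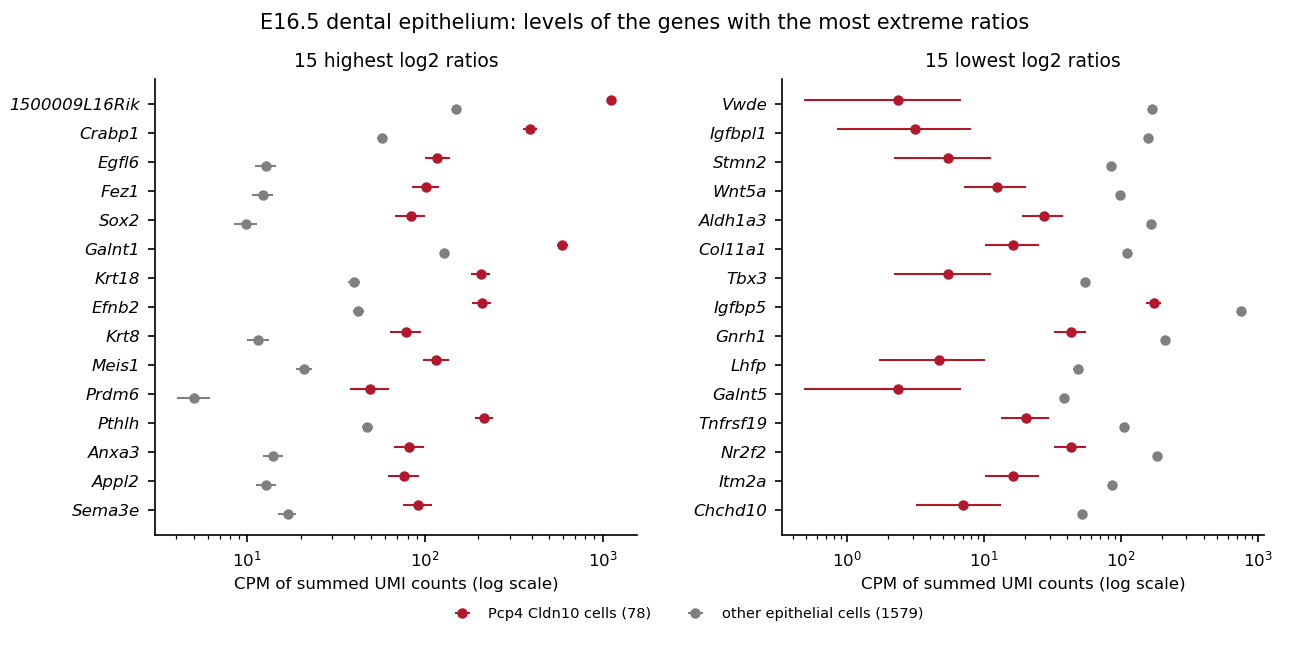
Levels in CPM of summed UMI counts, on log axes, of the 15 genes with the highest and the 15 with the lowest log2 ratio in the 78 Pcp4 Cldn10 cells and the 1579 other epithelial cells of E16.5, with bars for exact Poisson 95% intervals. The genes were chosen by their ratio in these same cells, and for each gene plotted the intervals of the 2 groups are apart. Sox2 stands at 83.3 against 9.81 CPM and Vwde at 2.34 against 169 CPM.

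Next, the other epithelial cells were divided by the same kind of rule to find the cells nearest to the Pcp4 Cldn10 cells. The groups, taken in order, were 173 cells with a Krt15 or Meis2 UMI, 340 with at least 2 Shh UMIs, 167 with both Nr2f2 and Igfbpl1, 172 with Pcp4 or Cldn10 alone, and 727 remaining cells. In the Pcp4 Cldn10 cells 34 genes (0.583% of those measured) were at least 2-fold higher than in every one of the 5 groups, and 24 (0.412%) were at least 2-fold lower. Taken 1 group at a time, the shares of genes at least 2-fold higher and lower were smallest against the cells with Pcp4 or Cldn10 alone, at 0.903% and 1.13%. They were 1.53% and 1.41% against the remaining cells, 1.88% and 2.71% against the Shh cells, 2.36% and 2.49% against the Nr2f2 and Igfbpl1 cells and 1.48% and 3.73% against the Krt15 or Meis2 cells. The 34 include Pcp4 and Cldn10 themselves. For 27 of the 34, with Pcp4 and Cldn10 among them, the nearest group was the cells with Pcp4 or Cldn10 alone. For these 2 genes that follows from the rule. The group is set by the same genes and was shallower, with a median of 6949 against 11096 UMIs. It may hold cells in which a UMI of the other gene was missed. The part of this in its small shares and in its place as nearest group was not tested.

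Sox2 stood at 3 levels across these groups. It was highest in the Pcp4 Cldn10 cells, at 83.3 CPM. The cells with Pcp4 or Cldn10 alone (26.5 CPM, 19.6 to 35.0) and the Krt15 or Meis2 cells (23.5 CPM, 18.4 to 29.5) followed, with intervals that overlap. Shh cells held 5.29 CPM, Nr2f2 and Igfbpl1 cells 2.78 CPM and the remaining cells 2.75 CPM, again with overlapping intervals. Crabp1 had a different order, with 390 CPM in the Pcp4 Cldn10 cells, 142 CPM in cells with 1 of the 2 genes, 61.8 CPM in Shh cells and 41.5 CPM in the Krt15 or Meis2 cells. Prdm6 stood at 49.0, 19.4 and 6.75 CPM in the first, second and Krt15 or Meis2 groups and was not detected in the Nr2f2 and Igfbpl1 cells.

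Not all genes that were higher than in the pooled others were particular to the Pcp4 Cldn10 cells. Lgi2, which encodes a secreted leucine-rich repeat protein, stood at 132 CPM (112 to 153) in them and at 139 CPM (126 to 153) in the Krt15 or Meis2 cells, with overlapping intervals, and at 48.0 CPM in the pooled others. The receptor gene Fzd5 was at 50.6 CPM (39.1 to 64.5) and 36.6 CPM (30.2 to 44.0) in the same 2 groups.

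**Figure D3:**
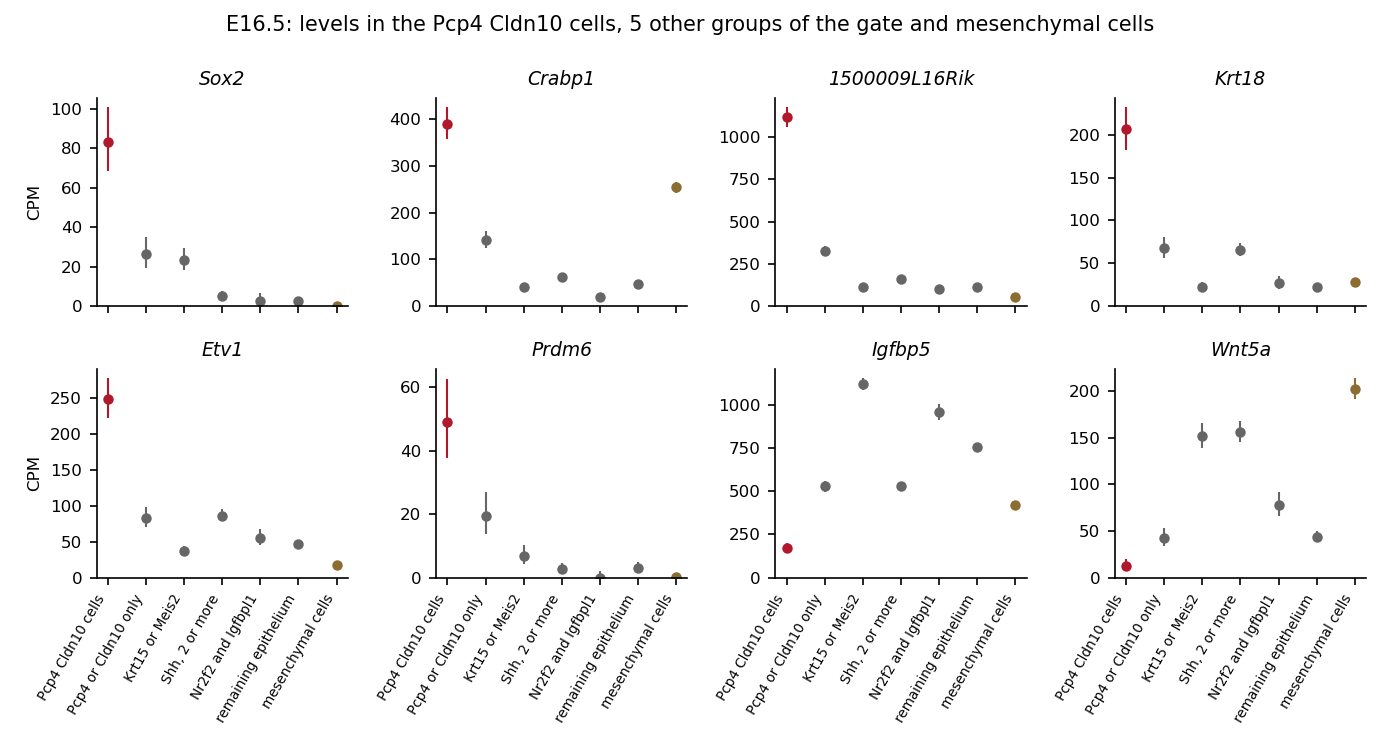
Levels in CPM with exact Poisson 95% intervals of 8 genes in the 78 Pcp4 Cldn10 cells (red), 5 other groups of the E16.5 epithelium (grey) and 882 mesenchymal cells (brown). Sox2, 1500009L16Rik, Krt18, Etv1 and Prdm6 are highest in the Pcp4 Cldn10 cells; Crabp1 is also present in mesenchymal cells at 254 CPM; Igfbp5 and Wnt5a are lowest in the Pcp4 Cldn10 cells.

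The gene lists used next group known roles, and each count is read against the 1.29% and 1.96% of all genes that were called higher and lower. For some listed genes the limit on the mean fixed the side of 0, such as Sox2, Prdm6, Lgr4 and Inhba (under 20 CPM in the others). The limit did so too for Vwde, Dlx3, Wnt5a, Wnt6 and Lef1 (under 20 CPM in the 78 cells). Among 13 genes of the cervical loop and stem cells, 9 were measured at 20 CPM or more, and Sox2, Prdm6 and Lgi2 were at least 2-fold higher. Part of this list was taken from earlier results of these data, so its direction is not independent. Sfrp5, a secreted Wnt inhibitor, stood at 33.5 against 15.3 CPM (log2 ratio 0.78) and Fzd5 had a ratio of 0.97. Igfbp5 was at least 2-fold lower. Bmi1 and Gli1, other genes linked to incisor stem cells, had ratios of 0.12 (-0.26 to 0.51) and -0.06 (-0.41 to 0.29). Lgr5 gave 1 UMI and Lrig1 1 UMI over the 78 cells.

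Of 11 measured genes of dental epithelial identity, none was 2-fold higher and Dlx3, Lef1 and Msx2 were at least 2-fold lower, with a median log2 ratio of -0.61. The homeobox gene Msx2 stood at 54.5 against 176 CPM and Dlx3 at 16.3 against 51.7 CPM. Isl1, with a ratio of 0.29, and Nkx2-3, also a transcription factor, at 67.7 against 46.1 CPM, were short of 2-fold. Trp63, a gene of the gate and of basal epithelium, stood at 208 against 321 CPM.

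Lists of other parts of the tooth epithelium were read next, with Msx2 and some other genes standing in more than 1 of them. In the list of inner enamel epithelium and ameloblasts, 3 of 5 measured genes outside the rule were at least 2-fold lower (Vwde, Msx2 and Dlx3), and 7 genes had no UMI in the 78 cells, among them the enamel matrix genes Ambn, Enam and Amelx. Ambn stood at 15.2 CPM in the other cells, and a count of 0 over 1284517 UMIs allows up to 2.34 CPM (3 counts). In the list of stratum intermedium and stellate reticulum, 3 of 6 were at least 2-fold lower, namely Alpl (20.2 against 72.0 CPM), the Notch receptor gene Notch2 (45.9 against 110 CPM) and Wnt4. In the list of the enamel knot, the signalling centre of the tooth germ, 4 of 6 outside the rule were lower (Wnt6, Cdkn1a, Lef1 and Msx2), and Fgf4 and Fgf20 had no UMI. Sostdc1, an inhibitor of Wnt and BMP signals, was at 670 against 762 CPM. Among keratins of oral and outer epithelium, Krt8 and Krt18 were the 2 higher of 3 measured, while Krt4, Krt13 and Krt19 had no UMI.

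FGF signals act through receptors to the ERK pathway, and Dusp6, Etv1 and Etv5 are well-known targets. These 3 were the higher genes among 10 measured in the FGF list, and none was 2-fold lower. Etv1 stood at 248 CPM (222 to 277) against 60.9 CPM (57.3 to 64.8), a log2 ratio of 1.86, and was found in 35.1% against 10.1% of cells after thinning. Etv5 stood at 91.9 against 27.9 CPM (1.43, 1.16 to 1.68) and Dusp6, a phosphatase that dampens ERK, at 113 against 43.5 CPM (1.20, 0.96 to 1.43). All 3 were at least 2-fold above each of the 5 other groups of the epithelium. The other targets in the list did not share this pattern. Etv4 stood at 28.8 against 33.3 CPM, the inhibitor Spry2 at 32.7 against 55.3 CPM and Spry1 at 21.8 against 19.1 CPM. Of the receptors, Fgfr1 had a ratio of 0.64 and Fgfr2 one of -0.63. The ligand gene Fgf9, with a mean just under the limit of 20 CPM and so not counted, gave 2 UMIs (1.56 CPM) against 37.7 CPM in the other cells.

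In the Wnt list, 1 of 11 measured genes was at least 2-fold higher and 4 were lower. The higher was Lgr4, a receptor for R-spondins, at 41.3 against 15.2 CPM. The lower were the ligands Wnt4, Wnt5a and Wnt6 and the nuclear factor Lef1. Wnt6 stood at 7.01 CPM (3.20 to 13.3) against 51.0 CPM, and Lef1 at 4.67 CPM (1.71 to 10.2) against 39.1 CPM. Wnt4 was at 61.5 against 223 CPM, but 59.5% of its 79 UMIs came from 1 cell. Wnt5a and Wnt6 were at least 2-fold below all 5 groups. Below the 20 CPM limit, the targets Axin2 and Sp5 stood at 5.45 against 14.1 CPM and at 0 UMIs against 10.9 CPM, and Tcf7 at 3.89 against 17.8 CPM. Among the Frizzled receptors Fzd3 was at 297 against 160 CPM (log2 ratio 0.85), and Fzd6 at 22.6 against 28.6 CPM. Fzd1 is outside the list and was added after its value was seen. It stood at 81.0 CPM in the Pcp4 Cldn10 cells and at 22.1 CPM in the highest of the 5 other groups, and so was at least 2-fold above all of them.

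The Hedgehog list held no gene past 2-fold apart from Shh, which the rule set low. The receptor and target gene Ptch1 came nearest with 119 against 231 CPM (log2 ratio -0.90, -1.12 to -0.68), while Gli1, another target, was at 34.3 against 36.0 CPM. In the BMP, activin and TGF-beta list, 2 of 14 genes were higher and 2 lower. The receptor gene Bmpr1a stood at 224 against 92.6 CPM and Inhba, an activin subunit, at 36.6 against 5.31 CPM. Lower were Id4 (48.3 against 116 CPM) and Fst, an activin and BMP antagonist (24.1 against 63.7 CPM). Id1, Id2 and Id3, which respond to BMP signals, had log2 ratios of -0.09, -0.14 and -0.06. In the Notch list 1 of 6 genes was called, Notch2, and Hes1 stood at 160 against 173 CPM.

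Retinoic acid is made by aldehyde dehydrogenases, bound by Crabp proteins and broken down by Cyp26 enzymes. Of 6 measured genes of this pathway, Crabp1 was at least 2-fold higher and Aldh1a3 lower. Crabp2 stood at 207 against 119 CPM (0.75, 0.57 to 0.93) and Cyp26a1 at 107 against 56.7 CPM (0.81, 0.57 to 1.04). Cyp26c1, below the limit, was at 18.7 against 4.85 CPM. The receptor gene Rara had a ratio of 0.08 and Rarg, below the limit, one of -0.04, and Aldh1a1 and Aldh1a2 had no UMI in the 78 cells.

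The genes of calmodulin and calcium binding did not follow Pcp4. Calm2 and Calm3, which encode calmodulin, had log2 ratios of 0.51 and 0.10, and 2 of 9 measured genes outside the rule were lower, Camk2d and S100a6. Besides Cldn10, 3 of the claudin and tight junction genes were measured, none was past 2-fold, and Cldn7 stood at 28.0 against 20.9 CPM. Of 13 basement membrane and hemidesmosome genes Dst alone was called, at 82.5 against 234 CPM, and of 18 actomyosin genes Tpm1 alone, at 185 against 469 CPM. Myh10, a non-muscle myosin heavy chain, was at 222 against 139 CPM and Myh9 at 95.8 against 110 CPM. Myl9, a regulatory light chain, was at 8.56 against 20.8 CPM.

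The gate chose the cells of both groups by UMIs of its 9 epithelial genes, so their levels are given only as a description. The part of the gate and of depth in their ratios was not tested. Of these 9 genes, 4 were at least 2-fold lower and none was 2-fold higher. Epcam, an adhesion molecule, stood at 831 against 431 CPM (log2 ratio 0.93), short of 2-fold, whereas the basal keratins Krt5 and Krt17, the desmosomal cadherin gene Dsc3 and Sfn were at least 2-fold lower. Krt5 was at 236 against 566 CPM and Krt17 at 354 against 805 CPM. Some genes outside the lists were singled out after their values were seen. Perp and Gja1, which serve desmosomes and gap junctions, were at 83.3 against 273 CPM and 311 against 799 CPM. The growth factor gene Ptn was at 1746 against 680 CPM and Zbtb20, a zinc finger gene, at 459 against 118 CPM.

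Whether Sox2-expressing cells divide was among the questions of the study. No gene of a list of 10 was past 2-fold, but their summed level was 3081 CPM in the Pcp4 Cldn10 cells and 2383 CPM in the others, a log2 ratio of 0.37 (0.32 to 0.42). All 10 ratios were above 0, from 0.07 for Mki67 to 0.85 for Ube2c, which acts in mitosis. After thinning, 87.0% against 66.2% of cells held at least 1 UMI of the list and 68.8% against 45.1% held 3 or more. The sum per cell had a median of 2473 CPM in the selected cells, with quartiles of 1036 and 4484 CPM, against a median of 961 CPM in the others. Free RNA adds UMIs to each cell, so these values are levels and not counts of dividing cells. Among the 78 cells, Sox2 stood at 75.2 CPM (60.4 to 92.5) in 64 cells with at least 5 UMIs of the list and at 179 CPM (106 to 282) in the 14 with fewer. Without the 2 deepest cells, which hold no Sox2, the former level was 91.0 CPM (73.1 to 112), and the intervals overlap. The latter were shallower, with a median of 5681 against 12212 UMIs, and a count of UMIs follows depth, and the part of depth in these values was not tested. Split the other way, the summed list stood at 3372 CPM (3240 to 3508) in the 41 cells with a Sox2 UMI and at 2700 CPM (2565 to 2840) in the 37 without, or 2726 CPM (2556 to 2905) without the 2 deepest. Single genes of the list, given with the 2 deepest cells included, did not all share this direction. Mki67 stood at 398 against 142 CPM, Cenpf at 427 against 227 CPM and Top2a at 764 against 565 CPM. Ube2c, at 483 against 478 CPM, had overlapping intervals. Cdk1 (187 against 230 CPM), Birc5 (195 against 223 CPM) and Ccnb2 (107 against 126 CPM) went the other way, also with overlapping intervals.

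Markers of other cells were checked in the same way. Haemoglobin genes were higher as a sum with their erythroid list (7565 against 5979 CPM, log2 ratio 0.34), with Hbb-bs the most abundant at 3613 CPM, but 2 cells carried most of it, with 7.99% and 54.9% of their UMIs from haemoglobin. The medians per cell were 0.0202% and 0.0232%. The defining erythroid genes Gata1, Klf1 and Slc4a1 had no UMI, and with cells over 1% haemoglobin left out the ratios of Sox2 and Crabp1 were 2.19 and 2.63. The gate allowed a UMI of at most 1 of its 3 mesenchymal genes in each cell, so their levels are given only as a description. Of these genes, Twist1 had no UMI and Prrx1 gave 3.11 CPM. Pdgfra, a growth factor receptor gene, stood at 28.8 against 6.48 CPM and was found in 26.9% against 4.31% of cells. Over the whole list of 14 mesenchymal genes the sums were 673 against 948 CPM. Vim was the most abundant at 162 CPM, and of the 6 genes with a mean of at least 20 CPM 1 was at least 2-fold lower (Dlx5) and none higher. Pdgfra, with a log2 ratio of 1.24 (0.86 to 1.61), was below that limit. The part of Pdgfra-bearing RNA from other cells was not tested. With a stricter gate of at least 5 epithelial and no mesenchymal genes, 46 cells remained and the ratios of Sox2 and Crabp1 were 2.25 and 2.46.

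Endothelial, immune and muscle genes were at or near 0. Pecam1, Cdh5 and Kdr had no UMI among 8 endothelial genes, and Egfl7, the most abundant of them, gave 18 UMIs. Of 10 immune genes 9 had no UMI, and so had 7 of 8 muscle genes. Sox10, which defines glia, had none, and the 2 measured genes of the glial and neural list, Stmn2 and Tubb3, were both at least 2-fold lower, with Tubb3 the most abundant at 32.7 CPM. That list summed to 59.2 against 216 CPM. Of the 13 immediate early and stress genes, which respond to dissociation, 11 were measured and none was past 2-fold. Jun stood at 628 against 409 CPM and Fos at 208 against 218 CPM. Scrublet, which scores likely doublets against simulated ones, called none of the 78 cells but only 2 of all 4511, so its calls carry little weight. By its scores, 5 of the 78 cells (6.41%) and 3.80% of the other epithelial cells lay among the top 5% of the stage.

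Single cells differed in how much of the pattern they held. The 15 leading genes were chosen for their ratio in these same cells, so a higher number per cell follows from the choice and is given as a description. Of the 15 genes with the highest ratios, the Pcp4 Cldn10 cells held a median of 10 and the other epithelial cells a median of 2. At least 10 of the 15 were found in 41 of the 78 cells (52.6%, 40.9 to 64.0%) and in 37 of the 1579 others (2.34%). After thinning to 2000 UMIs the medians were 4 and 1, and 67.5% against 5.17% of cells held 4 or more. Conversely 5 of the 78 cells held 3 or fewer of the 15, and the deepest held 8. Thus the rule admitted some cells without the rest of the pattern. It also left some out, since of the 37 other cells with at least 10 of the genes 20 had no Pcp4 UMI, 15 no Cldn10 UMI, 7 had 2 or more Shh UMIs and 8 had a Krt15 or Meis2 UMI. Those 37 cells were deep, with a median of 17945 UMIs.

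**Figure D4:**
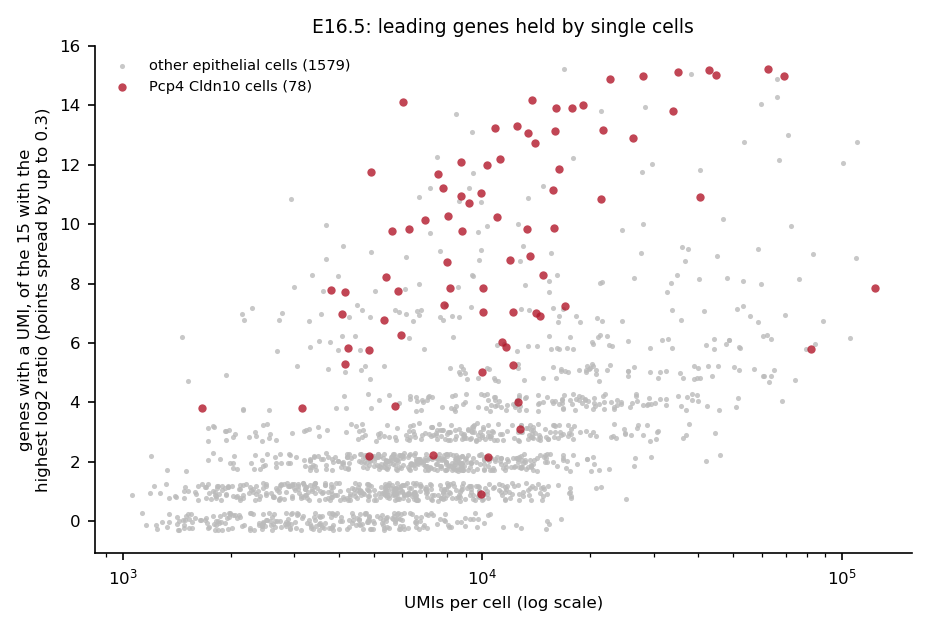
Number of the 15 leading genes with a UMI in each E16.5 epithelial cell against its UMIs on a log axis, with points spread vertically by up to 0.3, for the 78 Pcp4 Cldn10 cells (red) and the 1579 others (grey). The median is 10 genes in the former and 2 in the latter, and the 2 deepest Pcp4 Cldn10 cells, with 8 and 6 genes, lie among grey points.

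Cells just inside and just outside the thresholds are given once, without a test. In the 8 cells with exactly 1 UMI of both Pcp4 and Cldn10, Sox2 stood at 11.2 CPM and Crabp1 at 106 CPM. The deepest cell supplied 69.2% of the UMIs of these 8, and without it Sox2 stood at 36.2 CPM (4.39 to 131) and Crabp1 at 326 CPM (193 to 516). In the 49 cells with at least 2 UMIs of both, the levels were 91.2 and 424 CPM. Just outside, 66 cells with Pcp4 and no Cldn10 held 52.7 CPM of Sox2 and 116 CPM of Crabp1, and 115 cells with Cldn10 and no Pcp4 held 13.8 and 136 CPM. Cells left out only for Shh numbered 14 (Sox2 39.0 CPM), and cells left out only for a Krt15 or Meis2 UMI numbered 6 (Sox2 152 CPM). The latter 6 held a median of 14 of the 15 leading genes at a median of 27457 UMIs.

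Among the 78 cells, 41 with a Sox2 UMI were set beside 37 without. Their median depths were 13461 and 10085 UMIs, and the part of depth in the detection of Sox2 was not tested. The 2 deepest cells, both without Sox2, supplied 37.1% of the UMIs of the latter, so values are also given without them. 1500009L16Rik stood at 1400 CPM (1315 to 1489) against 748 CPM (678 to 824), Crabp1 at 478 against 275 CPM and Egfl6 at 173 against 45.0 CPM. Krt18 was at 276 against 115 CPM and Prdm6 at 64.5 against 28.8 CPM. Without the 2 deepest cells, the cells lacking Sox2 held 1152 CPM of 1500009L16Rik (1042 to 1270), 65.7 CPM of Egfl6 (41.7 to 98.6) and 183 CPM of Krt18 (141 to 234), still below the intervals of the cells with Sox2. Their levels of Crabp1 (434 CPM, 368 to 509) and Prdm6 (45.7 CPM, 26.1 to 74.3) then had intervals that overlap those of the cells with Sox2. Deep cells were left out on the side without Sox2 only. The next 2 deepest cells (69265 and 62337 UMIs) carry Sox2 and stayed in. They held 124 and 101 UMIs of 1500009L16Rik and 41 and 18 of Krt18. Whether the levels stay apart without them was not tested. Sfrp5, at 31.6 against 36.0 CPM, and Igfbp5, at 170 against 176 CPM, had overlapping intervals.

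Both sexes were present, as far as transcripts show. Of the 78 cells, 51 held Xist and no UMI of the Y-linked genes, 14 held a Y-linked UMI and no Xist, 3 held both and 10 neither. The corresponding shares of 65.4% and 17.9% were near the 61.1% and 18.0% of the other cells. The Sox2 ratio was 2.24 in cells with Xist alone and 2.67 in cells with Y-linked UMIs alone, and the Crabp1 ratios were 2.44 and 2.94. The ratios had the same direction in both sets.

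The same rule was then applied to E14.5 and E11.5. At E14.5 it found 19 of 852 epithelial cells (2.23%, 1.35 to 3.46%), with a median of 16063 UMIs against 4879 in the other 833. At E11.5 the gate held 6 cells and the rule found 0. The shares at E14.5 and E16.5 (2.23% and 4.71%) cannot be told apart from differences in dissection, embryos and depth between stages, since each stage is 1 matrix.

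Part of the E16.5 pattern was also seen at E14.5, in cells that had no part in the choice of the 30 genes. Of the 15 genes with the highest ratios at E16.5, 13 had a mean of at least 20 CPM at E14.5. All 13 had a ratio above 0, Sox2 by only 0.0024, and 9 had a whole interval above 0, where 51.7% and 11.2% of all 5326 genes measured at that stage did. Prdm6 and Appl2 were below the limit. Egfl6 (39.4 against 12.0 CPM) and Fez1 (44.7 against 12.8 CPM), both among the 9, passed it only through the 19 cells. The limit therefore fixed their side of 0, and they are given as a description. Only the rest of the 13 and of the 9 bear on the comparison with all genes. The median ratio of the 15 at E14.5 was 1.04. The ratios were 1.65 (1.51 to 1.79) for 1500009L16Rik, 1.55 (1.26 to 1.83) for Crabp1 and 1.69 (1.41 to 1.97) for Krt18. Of the 15 lowest genes 7 were measured at E14.5, and 5 of these were below 0 and 4 had a whole interval below 0, against 48.3% and 7.55% of all genes. The other 8 were below the limit, and 4 of them had no UMI in the 19 cells, so that their ratio could only be 0 or lower. Among the 7 measured, Aldh1a3 (15.8 against 27.4 CPM) and Itm2a (13.1 against 34.1 CPM) passed the limit only through the other epithelial cells. The limit therefore fixed the side of 0 of these genes as well, and they too are given as a description. Aldh1a3 and Itm2a are among the 5 below 0, and Itm2a is among the 4 with a whole interval below 0. Only the rest of the 5 and of the 4 bear on the comparison with all genes. Igfbp5 had the lowest ratio at E14.5, -2.59 (-3.20 to -2.01). Nr2f2 and Gnrh1 went the other way, with ratios of 0.78 and 0.76 and intervals above 0.

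Sox2 had the lowest ratio of the 15 at E14.5, and Krt8, Meis1, Prdm6, Appl2 and Sema3e also had intervals that include 0. At E14.5 it stood at 49.9 CPM in the 19 cells and at 49.8 CPM in the other 833 cells, a log2 ratio of 0.00 (-0.59 to 0.57), where it was 2.24 (1.96 to 2.50) at E16.5. The 2 intervals are apart in counting error, but a difference between stages could not be tested with 1 matrix each. Over the whole epithelium, Sox2 was found in 20.7% of cells at 49.9 CPM at E14.5 and in 7.48% at 14.9 CPM at E16.5. Within the cells of the rule it was at 49.9 CPM (30.1 to 78.0) and 83.3 CPM (68.3 to 101) at the 2 stages, with overlapping intervals. Prdm6 gave 1 UMI in the 19 cells and 5 in all 852, and stood at 49.0 CPM in the Pcp4 Cldn10 cells of E16.5. The plot of ratios at both stages shows the E14.5 values of most leading genes between 0 and those of E16.5.

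**Figure D5:**
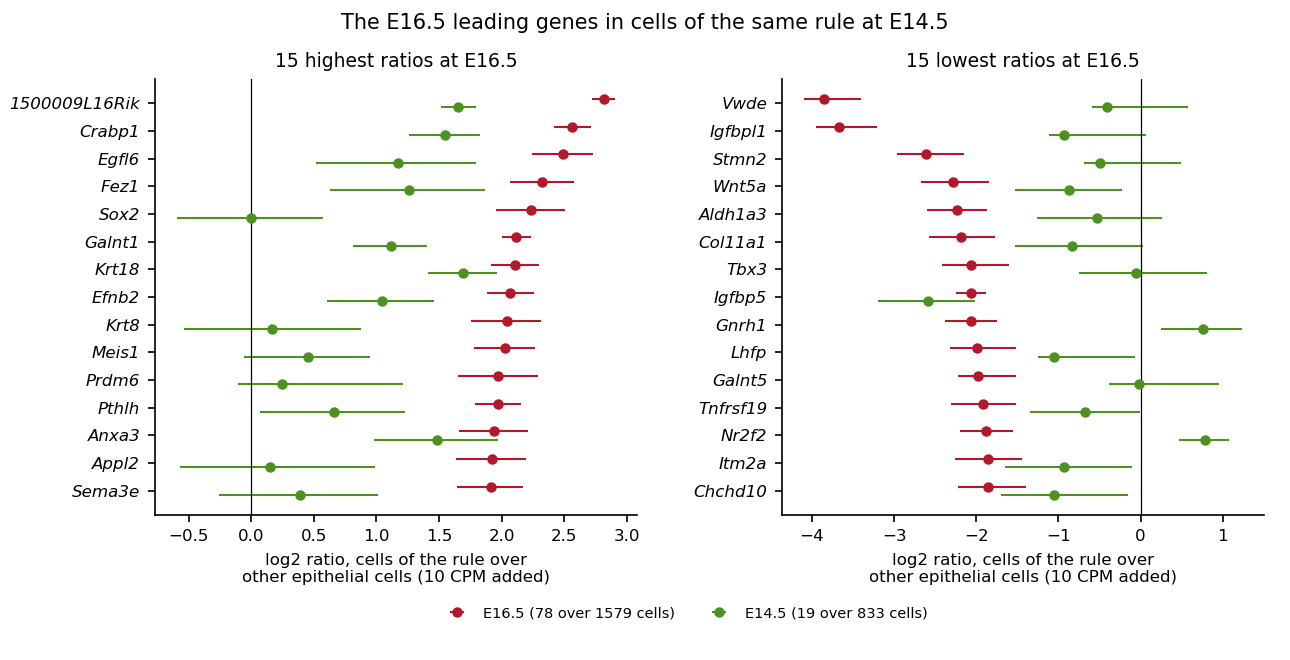
Log2 ratio of cells of the rule over other epithelial cells (10 CPM added), with intervals from counting error, at E16.5 (red, 78 over 1579 cells) and E14.5 (green, 19 over 833 cells), for the 15 highest and 15 lowest genes of E16.5. At E14.5 all 15 of the left panel are above 0, Sox2 by 0.0024, and 13 of the 15 in the right panel are below 0, with Nr2f2 and Gnrh1 above. Means under 20 CPM at E14.5 are plotted too, for 2 genes on the left and 8 on the right.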

How the data were processed

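The authors sequenced 10x Genomics 3' libraries (kit version 3) and counted UMIs per gene with Cell Ranger 4.0.0 on mm10; the deposited values are UMI counts, not normalized, in 1 matrix per stage with 32285 genes. The E16.5 matrix held 42895059 UMIs in 5719 barcodes. No column of samples was left unused (0), and barcodes carry no embryo, so counts were summed over cells, each stage was 1 sample and no test across genes was made. Levels are CPM with exact Poisson 95% intervals, shares have exact Clopper-Pearson intervals, and log2 ratios had 10 CPM added, with intervals joined from those of both levels. All cover counting error only. Genes with a mean of at least 20 CPM over both groups were measured, and called at 2-fold. The genes named were the 15 with the highest and the 15 with the lowest ratio outside the rule, found in at least 10% of cells of either group, plus members of 25 lists. Members and lists were chosen with earlier results of these data known. Doublets were scored with Scrublet in scanpy 1.11.5 and none were removed. Python 3.11.15, numpy 2.4.6 and scipy 1.17.1 were used. On simulated counts for this comparison (5743 genes), all 200 genes changed 4-fold were recovered. The changed genes were drawn from those well above 20 CPM in the others, with Poisson counts and no spread between cells. Recovery at a 2-fold cut was therefore largely fixed by these settings, and genes as low as Sox2 in the others were not covered. Promoter sequences and motif counts came from RefSeq GRCm38.p6, and coordinates from the mouse annotation on GRCm38. Results for some listed genes are not reported here.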

Additional observations from a re-analysis of the deposited data

How the results depend on the processing

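No paired analysis was possible because the barcodes carry no sample, and leaving out a replicate was not possible for the same reason. Over 17 alternatives the 15 highest genes stayed above 0 and the 15 lowest below 0, all past 2-fold except 1 and 4 of them with 50 CPM added. Leaving out the deepest cell or the 2 deepest was chosen after seeing the data, also for splits of the 78 cells. The rule found 46 cells with at least 5 epithelial and no mesenchymal genes, and 49 with 2 UMIs of Pcp4 and Cldn10. Genes 2-fold higher and lower numbered 195 and 246 after thinning, 155 and 286 in cells with Y-linked UMIs alone, and 27 and 33 with 50 CPM added, and 173 were lower without a filter on low values. The Sox2 ratio was 2.67 in cells with Y-linked UMIs alone, 2.96 with 1 CPM added and 1.16 with 50 CPM added. The Crabp1 ratio was 2.76 with Shh at 0, 2.75 as a mean of cell CPM, 2.94 in cells with Y-linked UMIs alone, 2.74 and 2.03 with 1 and 50 CPM added, and 2.81 without the 2 deepest cells. The cell cycle ratio was 0.42 with the stricter epithelial gate, 0.53 thinned, 0.28 with others weighted to the same depth, 0.54 as a mean of cell CPM, 0.29 against others without Krt15, Meis2 and Shh cells, and 0.45 in cells with Y-linked UMIs alone. The haemoglobin ratio was -0.00095 with at least 200 genes and no mitochondrial limit, 0.47 with limits of 1000 genes and 10% mitochondrial UMIs, -1.69 with the stricter gate, 0.87 with 2 UMIs of both genes, 0.66 with Shh at 0, -0.17 without cells over 1% haemoglobin, 0.41 without the top Scrublet scores, 0.69 thinned, 0.18 depth-weighted, 0.70 as a mean of cell CPM, -0.31 against others without Krt15, Meis2 and Shh cells, -4.72 and -1.94 in cells with Y-linked UMIs or Xist alone, and 0.48 and 0.59 without the deepest or 2 deepest cells. Of 884 values for single genes and lists 617 moved by less than their interval, and 267 by more. No value past 2-fold changed sign, whereas the haemoglobin ratio, which was within 2-fold, did. With 78 cells and 1 matrix, levels of a few CPM rest on a few UMIs, and spread between animals is unknown.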
